A study of Mus musculus with 15 samples.

Results

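The 6 ATAC-seq libraries compared here, of 15 in the series, come from mouse macrophages that had been exposed to bacterial lipopolysaccharide (LPS) for 2 h (3 libraries) or for 4 h (3 libraries). They were chosen by the treatment time in their titles, with no measured value. All 6 were made from primary macrophages grown from the bone marrow of C57BL/6 mice in medium conditioned by L929 cells, taken on day 7 of differentiation and given LPS at 10 ng/ml. The remaining 9 libraries (3 untreated, 3 at 30 min and 3 at 1 h) served only to read out what the same places in the genome had looked like before. Neither separate mice nor separate cultures are named for the triplicates, so every p-value reflects only how much these libraries vary, and that variation may be technical.

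ATAC-seq uses a transposase that cuts where DNA is not wrapped up, so a peak marks accessible chromatin such as an active promoter or enhancer. LPS is recognised by the receptor TLR4, which in macrophages switches on a rapid wave of inflammatory genes through NF-kB and AP-1 factors. A later wave follows that depends on proteins made in the first, among them type I interferon, while early genes are shut off by inhibitors that the response itself induces. Very active genes can become accessible along much of their length and then appear as a single wide peak. The step from 2 h to 4 h asks which accessible regions of the early response close again and which open only later. No annotation of the files' genome build, mm9, was used, so regions are named by position, the genes and exons they overlap are not given, and macrophage marker genes could not be checked.

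Each library had its own peak list. At 2 h the lists held 80899, 82222 and 66955 nuclear peaks, and at 4 h they held 81518, 74191 and 55777 (replicates 1, 2 and 3). The 4 h replicate 3 list was the shortest of the 6, so the groups overlapped, and the means of 76692 ± 8458 and 70495 ± 13263 (SD, n = 3 each) did not differ beyond the spread (two-sided exact permutation p = 0.6, with 0.1 the smallest p that 3 against 3 allows). Covered length was 126, 128 and 112 Mb at 2 h against 123, 129 and 90.5 Mb at 4 h, again with the low value in 4 h replicate 3 (exact permutation p = 0.7). Median peak widths were 1362, 1345 and 1486 bp at 2 h and 1304, 1526 and 1460 bp at 4 h, which overlapped as well (exact permutation p = 0.9). The number of reads behind each list is unknown, so counting error cannot be stated, and an absent peak is the lack of a call, which is not proof of closed chromatin.

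4 h replicate 3 stood apart in its contents too. The overlap of peak lists was measured as the Jaccard index, the base pairs shared by both lists divided by those covered by either. It was 0.715, 0.692 and 0.687 among the 2 h libraries and 0.710 between 4 h replicates 1 and 2, but 0.604 and 0.620 between these and 4 h replicate 3. The same library reached 0.591, 0.584 and 0.654 with the 2 h libraries, the highest of these being its own replicate number. With full lists the mean index was 0.698 within 2 h, 0.645 within 4 h and 0.654 between times. In these lists the 4 h libraries were no more alike than libraries of different times. With lists of equal length the order differed, with means of 0.719 within 2 h, 0.685 within 4 h and 0.675 between times. Pooled over both times, indices within a time exceeded those between times by 0.0171 (exact one-sided permutation p = 0.1, the smallest that 6 libraries allow), and by 0.0269 with lists of equal length. The counts of opened and closed regions, of regions wide at a single time, the width calls and the shares by untreated peaks were recomputed without this library. Other counts below rest on all 6 libraries.

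**Figure D1:**
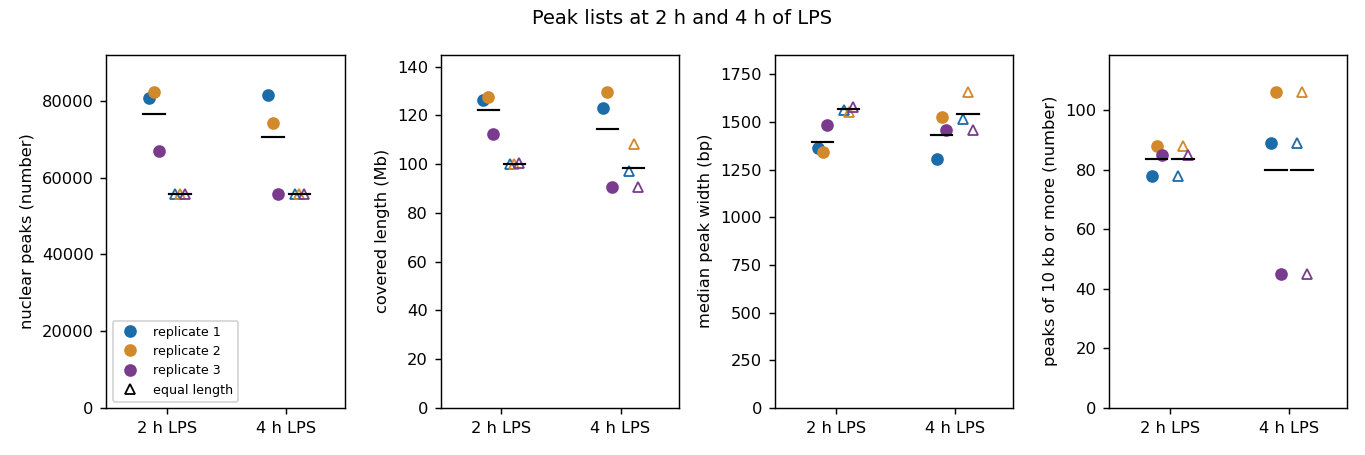
Number of nuclear peaks, covered length (Mb), median peak width (bp) and number of peaks of 10 kb or more in each of the 6 libraries, by hours of LPS. Filled circles are full lists, open triangles the lists cut to 55777 peaks by score, colours the replicate numbers and black bars the means; 4 h replicate 3 has the fewest peaks (55777), the smallest covered length (90.5 Mb) and the fewest wide peaks (45).

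Regions found in every library were the largest class. Merging peaks that overlapped gave 93872 regions, and 46352 of them (49.4%) carried a peak in 6 of 6 libraries. A region was called opened when it held a peak in every 4 h library and in no 2 h library, and closed in the reverse case. By this rule 287 regions opened (0.306% of all regions) and 1261 closed (1.34% of all regions). Fisher's exact test of a single region cannot go below p = 0.1 with 3 against 3 libraries, so no region is significant by itself and the counts are descriptive.

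The balance between opening and closing depended on which libraries and which list lengths were used. Opened regions were 18.5% of those that changed with full lists. When 4 h replicate 3 was left out, 1833 regions opened and 1393 closed, an opened share of 56.8%. Full presence at 2 h and a single gap at 4 h was found in 8460 regions, of which 7801 (92.2%) lacked the peak in 4 h replicate 3. Conversely, 1893 regions had a single gap at 2 h and none at 4 h, and 1360 of them (71.8%) lacked the peak in 2 h replicate 3, the shortest list of that time. Within replicate number 1, whose lists were nearly equal in length, 9493 regions had a peak at 4 h alone and 9190 at 2 h alone. The corresponding numbers were 6489 and 12586 for replicate 2, and 3469 and 14493 for replicate 3.

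List length was then held constant by keeping the 55777 best-scoring peaks of each list, the length of the shortest. In this setting 646 regions opened (0.946% of 68263) and 908 closed (1.33% of 68263), and opened regions made up 41.6% of the changes. Within replicate number 1, 5873 regions had a peak at 4 h alone and 6048 at 2 h alone. The corresponding numbers were 6579 and 5722 for replicate 2, and 6414 and 7250 for replicate 3. The peaks kept had scores down to 130 and 136 in 2 h replicates 1 and 2, against 50.01 in 4 h replicate 3, whose list was not shortened. Most of the additional openings were regions with a weak peak at 2 h. Of the 646, 202 had a peak in 3 full lists at 2 h, 247 in 2, 125 in 1 and 72 in none. The closings depended on the cut as well. Of the 908, 435 had a peak in 2 full lists at 4 h, 244 in 1 and 229 in none. With equal lists and 4 h replicate 3 left out, 1669 opened and 1508 closed, and with replicates 1 and 2 of both times alone 2577 opened and 2616 closed. More closing than opening was therefore not a stable feature of this step.

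**Figure D2:**
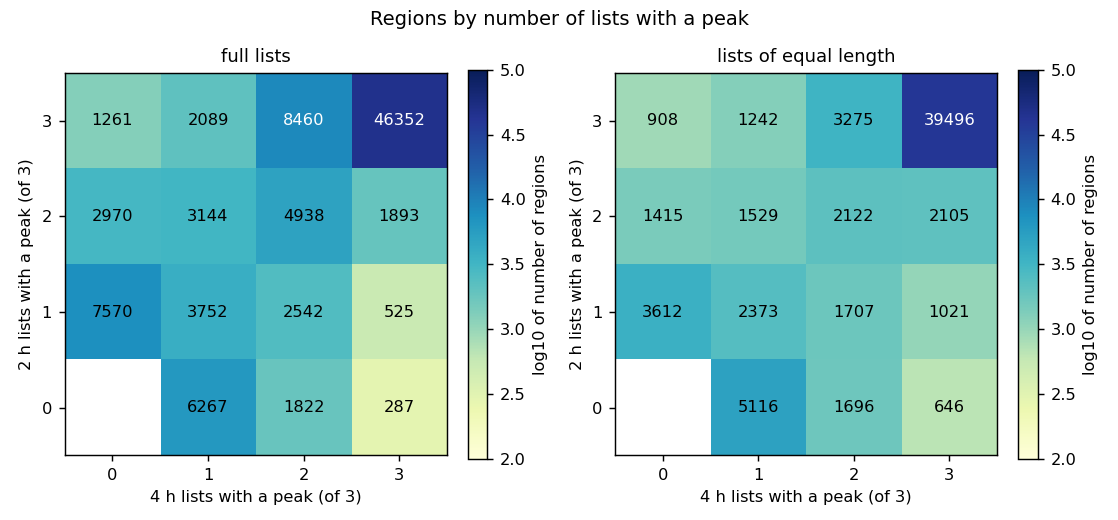
Number of merged regions by how many of the 3 libraries at 2 h (vertical axis) and at 4 h (horizontal axis) carried a peak, for full lists (left) and lists of equal length (right). Shading is the log10 of the count, and opened regions are at the lower right (287 and 646), closed ones at the opposite corner (1261 and 908), far below the 46352 and 39496 regions with a peak in all 6.

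Some regions were called with both list lengths. A full-list call stays with equal lists when its own peaks score above the cut, so the overlap selects regions with higher scores. It does not show independence from list length, because the list of 4 h replicate 3 was the same in both settings. Full and equal lists called 72 of the same opened regions (25.1% of the full-list calls and 11.1% of the equal-list calls) and 229 of the same closed regions (18.2% and 25.2%). Median width was 1408 bp for opened and 1402 bp for closed regions. It was 1618 bp for all regions and 1927 bp for those with a peak in 6 of 6 libraries. A changed region joins peaks of only 3 lists, so part of this difference follows from the rule. The peaks of changed regions were mostly weak ones. The median score of opened regions stood at percentile 26.7, 18.5 and 11.5 of the 4 h lists (replicates 1, 2 and 3), and that of closed regions at percentile 22.5, 27.1 and 16.3 of the 2 h lists. The score is the authors' value for a peak, used here only within its own list.

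Most opened regions had no called peak before LPS either. Of the 287, 179 (62.4%) had no peak in any untreated library and 147 (51.2%) had none in any of the 9 earlier libraries. With all 15 lists of equal length, 51.4% of the opened regions had no untreated peak. A smaller part, 38 (13.2%), had carried a peak in 3 of 3 untreated libraries and then lacked it at 2 h. This share was not above that of the mixed regions described below (14.2%). Of these 38, 12 already had no peak in any 1 h library. The share with 3 of 3 untreated peaks was 6.71% when 4 h replicate 3 was left out and 20% with all 15 lists of equal length. For comparison, 5686 regions also had a peak in 3 of the 6 libraries, but spread over both times (mixed regions). Of these, 44.5% had no untreated peak, 14.2% had 3, and 17.5% had none in the 9 earlier libraries.

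A part of the closed regions had gained a peak early in the response. No untreated library had a peak in 774 of the 1261 (61.4%), and 120 (9.52%) had one in 3 of 3. At 1 h, 256 (20.3%) were open in 3 of 3 libraries, against 4.22% of the mixed regions. In 149 (11.8%) this was combined with 0 of 3 untreated, against 59 (1.04%) of the mixed regions. The 2 sets differ in make-up, so these shares are not a like comparison. Mixed regions seldom had a peak in replicate 3 (17.7% at 2 h and 7.62% at 4 h). Every closed region had one in 2 h replicate 3 by the rule. In the 229 closed regions called with full and equal lists, 174 (76.0%) lacked an untreated peak and 79 (34.5%) went from 0 of 3 untreated to 3 of 3 at 1 h. A peak in all 9 earlier libraries was present in 22 of the 1261 (1.74%) and in 60 of the mixed regions (1.06%). These sets share the 2 h or 4 h libraries that define them, and no test was made between them.

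Seen by library, the closed regions held a peak more often in the LPS libraries of replicates 1 and 2 than before LPS. A peak was present in 13.6%, 33.2% and 24.5% of them in the untreated replicates, in 38.5%, 55.4% and 24.8% at 30 min and in 52.4%, 70.7% and 24.7% at 1 h. In replicates 1 and 2 the share was thus higher at each later time, whereas in replicate 3 it was level. Mixed regions had a peak in 25.4%, 48.5% and 28.9% untreated and in 40.7%, 52.2% and 7.76% at 1 h, and all regions in 57.3%, 69.4% and 58.5% and in 68.2%, 73.8% and 49.6%. In replicates 1 and 2 these shares, too, were higher at 1 h than untreated. In opened regions the share was lower at 1 h in all 3 replicates, from 18.8%, 27.2% and 26.5% untreated to 12.5%, 18.8% and 3.83% at 1 h. List length moves with these shares and its part in them was not tested.

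**Figure D3:**
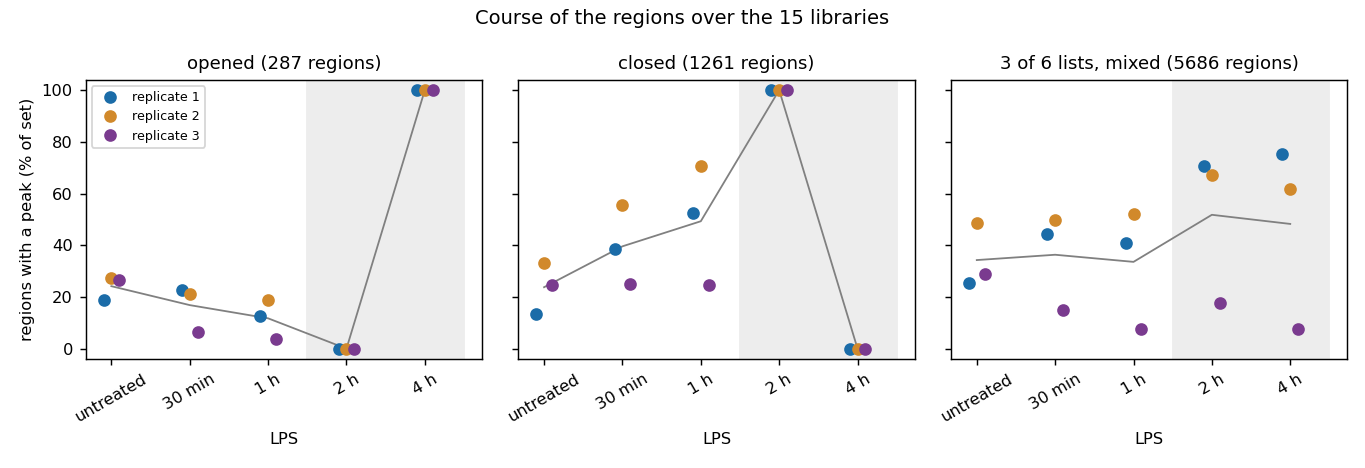
Share of opened, closed and mixed regions (a peak in 3 of the 6 libraries, spread over both times) that carried a peak in each of the 15 libraries, by LPS time. Points are libraries coloured by replicate number, the grey line joins the means, and the shaded times are those that define the sets, so that the 0% and 100% there are set by the rule; closed regions rise to 70.7% in 1 h replicate 2, while replicate 3 stays near 25%.

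The opened regions described singly are the 10 whose weakest 4 h peak scored highest, which is a rule for naming and not a measure of change. The region at chr11:78685980-78687659 ranked highest, with scores of 786, 417 and 415 in the 4 h lists and no peak in any of the 12 earlier lists. At chr2:4843172-4844672 the 4 h scores were 1202, 267 and 237, and here too every earlier list was empty. Both regions were thus seen at 4 h alone. So were those at chr2:117750500-117752047, chr10:109409898-109411505, chr10:10374182-10376913 and chr10:17461803-17463305, which makes 6 of the 10.

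The other named openings had a history. At chr10:20546279-20548884 peaks were present in 3 of 3 untreated libraries, 2 of 3 at 30 min and 2 of 3 at 1 h, absent at 2 h, and present again in 3 of 3 at 4 h. The region at chr6:122531591-122534132 had 3 of 3 peaks untreated and at 30 min and 1 of 3 at 1 h. The untreated peaks were 5363, 8273 and 7099 bp wide and ran past the region. The 4 h peaks were 1686, 2542 and 2459 bp wide and lay within it. At chr15:100278930-100280931 the peak was likewise present in 3 of 3 libraries untreated and at 30 min and in 1 of 3 at 1 h. The last, chr11:88950995-88952984, had a single earlier peak, in an untreated library with a score of 53.5.

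Most of the named closings had no peak before LPS. At chr4:48059185-48062375 no untreated library had a peak, 2 of 3 had one at 30 min and 3 of 3 at 1 h and at 2 h, where the scores were 985, 947 and 984, and 0 of 3 had one at 4 h. The region at chr17:87566904-87568691 had 0 of 3 peaks untreated, then 3 of 3 at 30 min, 1 h and 2 h, with scores of 756, 933 and 727 at 2 h, and none at 4 h. At chr4:57793147-57795710 the course was the same. At chr16:38398833-38400715 peaks began at 1 h (3 of 3), and the 2 h scores of 1019, 908 and 508 were again followed by 0 of 3 at 4 h. These regions thus had called peaks for a limited time.

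Among the 10 named closings, 7 had no untreated peak, none had 3 of 3, and 9 were open in 3 of 3 libraries at 1 h. The remaining regions with no untreated peak were chr4:53498397-53500142, chr4:131401712-131403368 and chr13:97412463-97413891. The last of these was open in 1 of 3 libraries at 30 min, in 1 of 3 at 1 h and in all at 2 h (scores 353, 1203 and 442). At chr19:56845808-56847580 and chr13:115938051-115939510 there was a peak in 1 untreated library, and at chr7:6097311-6099244 in 2. All 20 named regions, opened and closed, were also called with lists of equal length, which follows from naming them by high scores.

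The genome was divided into windows of 200 kb. Most windows with a changed region held a single one, and whether changed regions group was not tested. Below, the 3 with the most changed regions in each direction are described. The window chr4:117600001-117800000 held 8 closed regions of 39 in all, more than any other window. Peaks covered 8.6, 12.6 and 8.1 kb of it in untreated libraries and 40.8, 66.7 and 36.5 kb at 2 h, then 20.4, 20.1 and 14.0 kb at 4 h. Lower coverage at 4 h than at 2 h follows from how the window was chosen. The 4 h values lay above the untreated ones, which the choice did not use. None of its 8 closed regions had an untreated peak. In 3 of them (chr4:117649339-117651473, chr4:117750562-117752158 and chr4:117773758-117775145) peaks were called at 2 h and at no other time.

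The window chr1:84000001-84200000 held 7 closed regions of 33. It was covered over 23.7, 63.3 and 21.5 kb untreated, 87.05, 133.5 and 95.03 kb at 2 h and 33.2, 40.3 and 23.6 kb at 4 h. Covered length at 4 h was within the untreated range. In the window chr1:64000001-64200000, with 5 closed regions of 21, it was 37.9, 43.1 and 35.4 kb at 2 h and 24.0, 26.8 and 19.0 kb at 4 h, against 9.0, 20.2 and 12.0 kb untreated. Of all windows, 153 held 2 or more closed regions and 37 held 3 or more, among 1043 windows with any.

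Among 268 windows with an opened region, 16 held 2 or more and 3 held 3. The window chr1:175400001-175600000 was nearly empty at first, with peaks over 0.607, 1.07 and 1.122 kb untreated and 0.938, 0.601 and 0 kb at 1 h. Coverage was 7.9, 7.0 and 4.7 kb at 2 h and 24.3, 19.0 and 13.0 kb at 4 h, a difference in the direction that the choice of the window sets. Its 3 opened regions, chr1:175509553-175510790, chr1:175528560-175530426 and chr1:175587705-175589070, had no peak in any earlier library. In the window chr10:20400001-20600000 coverage was 21.1, 22.3 and 20.3 kb at 2 h and 27.9, 31.8 and 26.7 kb at 4 h. In chr8:118000001-118200000 the times overlapped although the window was chosen for its openings (28.7, 28.2 and 32.1 kb against 35.4, 42.3 and 28.0 kb).

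**Figure D4:**
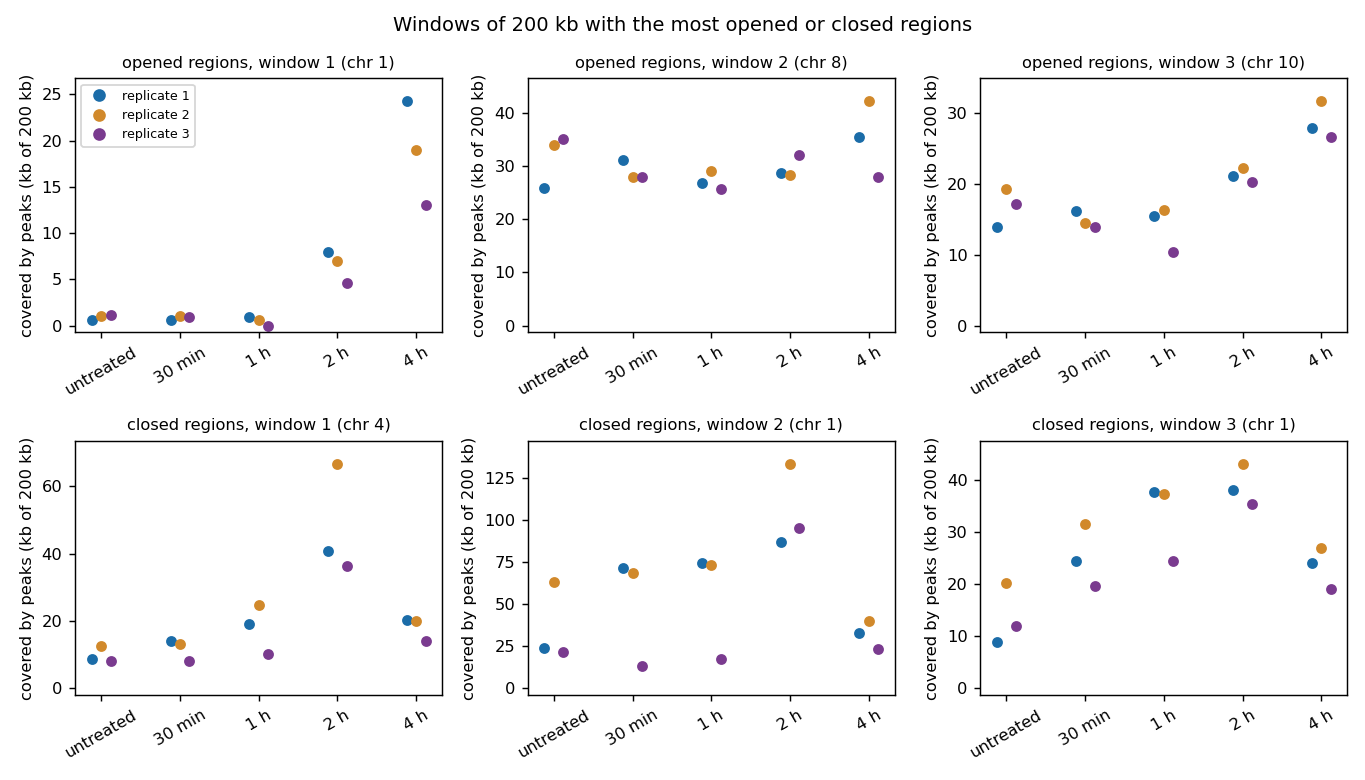
Length covered by peaks (kb) in each of the 15 libraries in the windows of 200 kb with the most opened regions (upper row) and closed regions (lower row), by LPS time. Points are libraries coloured by replicate number; in closed window 1 coverage reaches 66.7 kb at 2 h and is at most 20.4 kb at 4 h, and in opened window 1 it is at most 1.122 kb up to 1 h and 24.3 kb at the highest at 4 h.

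Peaks of 10 kb or more, called wide here, numbered 78, 88 and 85 at 2 h and 89, 106 and 45 at 4 h. At 4 h, replicates 1 and 2 lay above all 2 h values and replicate 3 below them. The means of 83.7 ± 5.13 and 80 ± 31.5 (SD, n = 3 each) were not told apart (exact two-sided permutation p = 1). With 3 against 3 libraries this does not show that the times were equal. Without 4 h replicate 3 the 4 h mean was higher by 13.8 peaks (exact permutation p = 0.2, the smallest that 2 against 3 gives). Of 164 regions with a wide peak in any of the 6 libraries, 23 were wide in all 6. A wide peak was present in 3 of 3 libraries at 2 h and 0 of 3 at 4 h in 7 regions (4.27% of the 164), and the reverse held in 2 (1.22%). Without 4 h replicate 3 these numbers were 8 and 10.

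Many regions that were wide at 2 h were wide at 4 h as well. Of the 52 regions wide in 3 of 3 libraries at 2 h, 34 were still wide in 4 h replicate 1, 42 in replicate 2 and 27 in replicate 3. Looking back, 30, 36 and 22 of them had been wide at 1 h, 20, 34 and 20 at 30 min, and 4, 7 and 3 untreated. Being chosen for wide peaks at 2 h, these regions are bound to be wide less often in other libraries. Of the 30 regions wide in 3 of 3 libraries at 4 h, 27, 24 and 26 were wide in the 2 h replicates, 14, 16 and 10 in those at 1 h and 3, 5 and 3 untreated.

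The 7 regions that lost their wide peak followed different courses. Non-overlap of their widest peaks between 2 h and 4 h is set by the rule, so the length that all peaks of a list covered in the region is given for some of them. At chr2:90288387-90347343 the widest peak measured 50.3, 38.0 and 37.7 kb at 2 h and 8.2, 8.4 and 6.3 kb at 4 h, and at most 9.3 kb at any earlier time. Peaks in the region together covered 8049, 12370 and 11801 bp untreated, 32050, 54774 and 26692 bp at 1 h, 58827, 57628 and 57695 bp at 2 h and 43539, 35306 and 19925 bp at 4 h. Covered length was thus above the untreated values at 1 h and at 4 h too. At chr2:68729871-68756125 it was again the 2 h libraries that stood out, with 11.5, 26.2 and 17.0 kb against 3.7, 5.5 and 3.1 kb at 4 h and at most 8.1 kb before. At chr6:116577555-116611337 the widths were 28.0, 28.7 and 13.0 kb at 2 h and 5.1, 8.1 and 2.5 kb at 4 h, and 1 h replicate 2 had already reached 18.5 kb.

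Others had held a wide peak already at 30 min in 2 or 3 of the libraries. At chr11:16865226-16909929 the widest peak was 2.8, 5.1 and 3.2 kb untreated, 38.5, 44.5 and 43.0 kb at 30 min, 44.8, 44.8 and 42.7 kb at 1 h, 27.7, 42.9 and 16.1 kb at 2 h and 8.9, 8.6 and 8.1 kb at 4 h. The covered length of the region was 41743, 42926 and 40681 bp at 2 h and 38037, 37950 and 31772 bp at 4 h, in 3, 1 and 6 peaks and in 10, 11 and 10 peaks. Most of the region was therefore still covered at 4 h, by more and shorter peaks, against 13083, 14713 and 13621 bp untreated. At chr9:20818175-20841418 the width was 13.3, 23.2 and 14.0 kb at 2 h and 5.3, 5.9 and 5.1 kb at 4 h, after 9.4, 20.4 and 20.7 kb at 30 min. At chr11:68243321-68293501 it was 16.0, 34.9 and 16.1 kb at 2 h and 6.8, 9.3 and 7.5 kb at 4 h, after 12.1, 18.3 and 15.4 kb at 30 min. In the last of these, too, covered length changed less than the widest peak, from 48350, 49979 and 46721 bp at 2 h to 40022, 43902 and 32275 bp at 4 h.

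At chr2:102688367-102732008 the wide peak was largest at 1 h, where replicates 1 and 2 measured 51.1 and 56.4 kb and replicate 3 measured 6.2 kb. It was 32.4, 33.8 and 14.4 kb at 2 h and 3.8, 3.6 and 3.0 kb at 4 h, which is within the untreated range of 1.6 to 3.4 kb or just above it. Covered length in the region was 42089, 43050 and 31815 bp at 2 h, 20902, 15497 and 10981 bp at 4 h and 9037, 17682 and 8746 bp untreated.

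The wide peaks that appeared at 4 h were at chr11:78732481-78783487 and chr13:55092071-55110070. In the former the widest peak measured 1.3, 1.4 and 1.2 kb untreated, 1.6, 2.1 and 1.8 kb at 1 h, 3.2, 5.1 and 4.4 kb at 2 h and 35.3, 49.4 and 17.6 kb at 4 h. The 4 h widths lay above every earlier value, and its start lay 44.8 kb from the highest-ranked opened region, chr11:78685980-78687659. In the latter, widths were 2.8, 2.8 and 2.0 kb untreated. At 2 h replicates 1 and 3 had peaks of 1.6 and 2.0 kb and replicate 2 had none, and at 4 h the widths were 15.4, 10.1 and 11.5 kb, of which the second is just over the limit.

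Other wide peaks were held through this step. At chr11:119258997-119358168, among the 23 regions wide in all 6 libraries, the peak was at most 4.1 kb up to 1 h, then 93.7, 96.1 and 66.8 kb at 2 h and 71.3, 71.3 and 66.9 kb at 4 h. At chr12:27122328-27142352 it went from at most 1.9 kb up to 1 h to 19.1, 18.8 and 18.9 kb at 2 h and 20.0, 18.9 and 19.1 kb at 4 h. Both had widened between 1 h and 2 h and stayed so. At chr11:3022480-3100307 the peak was wide in untreated libraries as well (29.4, 31.2 and 51.2 kb). It was 31.2, 53.7 and 73.7 kb at 2 h and 31.2, 73.5 and 73.9 kb at 4 h. Peaks together covered 76661, 76940 and 76875 bp of this region untreated. At 2 h they covered 76547, 76779 and 77234 bp, and at 4 h 76592, 77391 and 76334 bp. Covered length was thus nearly the same at these times, and the width of the widest peak varied with how it was split into peaks.

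**Figure D5:**
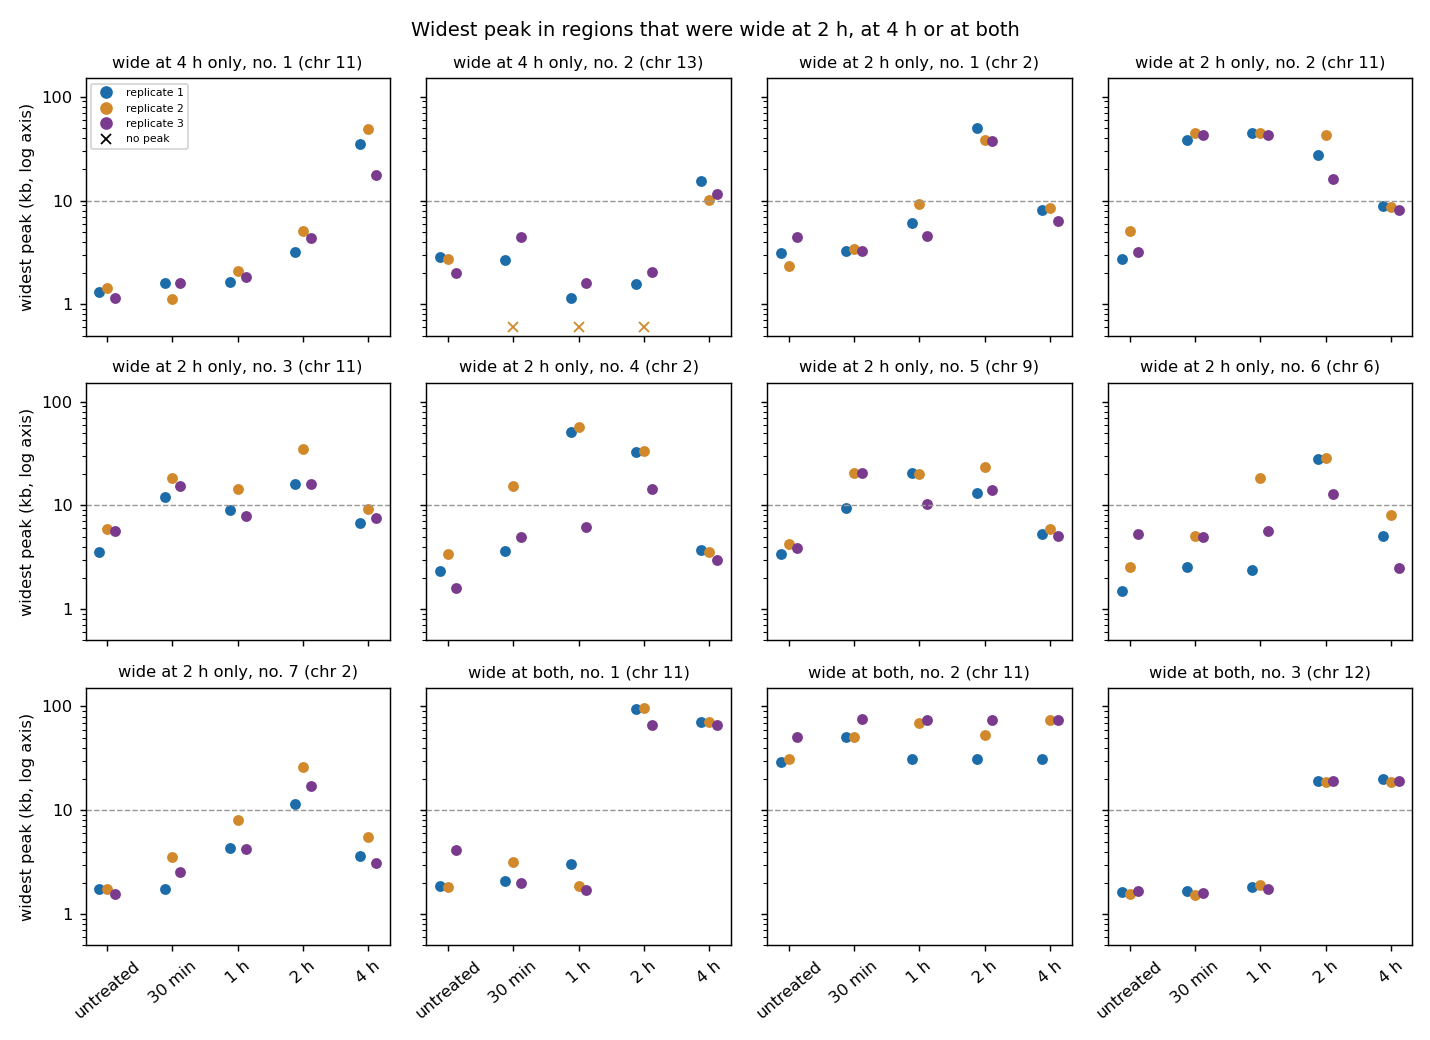
Width of the widest peak (kb, log axis) in each of the 15 libraries for the 2 regions wide at 4 h and not at 2 h, the 7 wide at 2 h and not at 4 h, and 3 of the 23 wide in all 6 libraries, by LPS time. Points are libraries coloured by replicate number, crosses mark libraries without a peak and the dashed line is at 10 kb; the region on chromosome 2 that reaches 50.3 kb at 2 h is at 8.4 kb or less at 4 h.

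Widths were also compared across all 46352 regions with a peak in 6 of 6 libraries, as the log2 of the base pairs that a list covered within the region, centred on each library's median. The limma test with Benjamini-Hochberg adjustment called 0 regions wider at 4 h (0%) and 1 narrower (0.00216%) at an adjusted p under 0.05, while 1758 were wider and 1680 narrower at an unadjusted p under 0.05. Between its 5th and 95th percentiles the log2 difference ran from -0.36 to 0.35, so that most shared regions kept nearly the same width. With lists of equal length the limma test called 6 wider and 13 narrower, and with scores of 100 or more 5 and 13.

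The region called, chr1:84096434-84118326, lies in the second-ranked window of closed regions. Peaks covered 16389, 21497 and 18388 bp of it at 2 h and 1058, 1340 and 1336 bp at 4 h, a log2 difference of -3.89 ± 0.154 (SE, limma, Benjamini-Hochberg adjusted p = 0.000943). All 3 values at 4 h were far below those at 2 h. In earlier libraries it was covered over 14418, 8820 and 0 bp at 1 h, 10195, 7874 and 0 bp at 30 min and 2215, 8339 and 0 bp untreated. The 2 h coverage consisted of 5 peaks in replicate 1, 1 peak in replicate 2 and 8 peaks in replicate 3. Without 2 h replicate 2, whose single peak joined the others, the region shrank to chr1:84115164-84118326 and the limma call was lost (log2 difference -1.31 ± 0.154 SE, adjusted p = 0.245).

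The regions next in order of p, listed after their values had been seen, all had a limma adjusted p of 0.0718 and were narrower at 4 h. At chr2:102647294-102662744, 25.6 kb from a region that lost its wide peak, coverage was 13970, 14648 and 9744 bp at 2 h and 3264, 3002 and 2786 bp at 4 h. At chr7:108375280-108379796 it was 3189, 3391 and 4508 bp at 2 h and 1087, 880 and 988 bp at 4 h. In both, the 1 h libraries (14952, 15100 and 7291 bp, and 2723, 3224 and 3234 bp) resembled the 2 h ones. At chr11:44193645-44196475, which had no peak in untreated libraries, coverage was 2645, 2630 and 2499 bp at 2 h and 1046, 1245 and 1064 bp at 4 h. At chr3:14664773-14668096 it was 3115, 3324 and 2994 bp against 1019, 1342 and 1190 bp, and the untreated values of 688, 965 and 1297 bp were like those at 4 h.

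By chromosome, closed regions made up between 0.956% (chromosome 8) and 2.40% (chromosome X) of all regions on the autosomes and chromosome X, and opened regions between 0.172% (chromosome 18) and 0.484% (chromosome 13). Closed regions lay a median of 5701 bp, and opened regions 6074 bp, from the nearest region with a peak in 6 of 6 libraries. For all regions short of 6 of 6 this distance was 7222 bp. No test was made of these differences.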

How the data were processed

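Each library is represented by the peak list its authors deposited, on build mm9. The submitters' processing notes name Bowtie 1.1.2 and MACS 1.4. Their roles and settings, any duplicate removal, transposase shift, control library or blacklist were not given in these sources. The authors' score in each deposited list is the caller's own value per peak. It was used to rank and filter within a list, and starts and ends were used as deposited. The authors' lists share at most 10 identical intervals per pair, so the lists are not copies of a pooled call.

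The 2 mitochondrial peaks per list were left out, peaks overlapping by 1 bp or more were merged, and positions are printed 1-based. Python 3.11.15, scipy 1.17.1, R 4.3.3 and limma 3.58.1 were used, and the code was tested on simulated data. Groups came from titles. Measures per library were tested by exact permutation and widths by limma, presence was counted, and other list lengths, score minimums, overlap rules and left-out libraries were tried. Named regions are, per direction, the 10 with the highest lowest score among 3 lists, all regions wide at a single time, width calls and the 3 densest windows. Members and rules were chosen with earlier results of these data known. Replicate numbers were not read as pairs, because deviations of same-numbered libraries correlated at -0.0127 to 0.166, not all above 0.1. This does not show that same-numbered libraries are unrelated. For log2 width they correlated at 0.0947, 0.0466 and 0.166, and differently numbered ones at -0.143 to 0.053. At each LPS time, replicate 3 had a peak in the fewest of all regions. Whether same-numbered libraries share a batch was not tested. Planned analyses of genes, markers and motifs need annotation of mm9 and were not run.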

Additional observations from a re-analysis of the deposited data

How the results depend on the processing

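Of 135 values recomputed under other settings, 81 were labelled the same, 49 moved and 5 changed direction. Counts and shares of regions were judged by how close they stayed to the main value. Differences between times were judged by their direction and, where tested, their side of the threshold. For differences, keeping direction is not keeping size. Covered length differed by -7.80 Mb between times with full lists and by -1.64 Mb with equal lists. Peaks of 5 kb or more differed by -43. With lists of equal length, 646 regions opened and made up 41.6% of the changes. With bins of 500 bp in place of merged regions, 1893 bins opened and 6027 closed (23.9% opened). With 2 or more of 3 libraries against 0 of 3, 2109 regions opened and 4231 closed (33.3% opened). With scores of 100 or more the opened share was 14.8%. Leaving out single libraries gave 353 to 1833 opened and 1393 to 3413 closed regions and an opened share of 9.37% to 56.8%. The highest opened share came without 4 h replicate 3 and the lowest without 2 h replicate 3. Settings added after the data were seen gave 1669 opened regions (52.5% opened) with equal lists and no 4 h replicate 3, and 2577 opened and 2616 closed (49.6% opened) with equal lists of replicates 1 and 2. The cause of these shifts was not tested.

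Leaving out single libraries moved the 4 h minus 2 h difference from -11708 to 1162.5 for nuclear peaks, from -15.4 to 4.09 Mb for covered length, from -15.7 to 95.3 bp for median width and from -16.7 to 13.8 for wide peaks. With equal lists the median width difference was -22.3 bp. The lowest exact permutation p over these settings was 0.2. Wide peaks at a single time numbered 8 (4 h) and 18 (2 h) from 5 kb up, and 11 and 14 with 2 or more of 3 libraries. They ranged from 2 to 10 (4 h) and from 8 to 14 (2 h) with single libraries left out. In limma, equal lists gave 6 wider and 13 narrower regions, scores of 100 or more gave 5 and 13, regions with 1 peak per list gave 0 narrower, and single libraries left out gave 0 to 2 narrower. Opened regions with no untreated peak were 51.4% with equal lists and 69.4% without 4 h replicate 3. Those with 3 of 3 untreated peaks were 20% and 6.71%, and closed regions with 3 of 3 were 14.2% with equal lists.

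Same-numbered libraries did not deviate together in every pair, so numbers were not read as pairs. With the replicate number as a block, change in 2 or more of 3 pairs gave 2634 opened and 6320 closed regions (29.4% opened), limma called 0 wider and 1 narrower, and exact sign-flip p-values for the measures per library were 0.5 to 1. Read depth is unknown, which limits what an absent peak can show.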
